A study of Mus musculus with 4 samples.

Results

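Paneth cells of the mouse small intestine were examined in droplet single-cell RNA data of sorted intestinal epithelium, as the 71 cells that passed a rule on their most abundant granule products. Cell barcodes with 500 or more detected genes, and no more than 20% of their unique molecular identifiers (UMIs) from mitochondrial genes, were kept. A kept barcode from Si8, which is section number 8 of the small intestine, was a member when at least 50 of every 10000 of its UMIs came from Lyz1 and at least 300 from Defa24. The rule found 19 of 1509 kept cells in Si8 replicate 1, a share of 1.26% (exact Clopper-Pearson 95% interval 0.760 to 1.96), and 52 of 2237 in Si8 replicate 2, a share of 2.32% (1.74 to 3.04). They are 71 of the 3746 kept Si8 cells and of the 10522 kept cells of all 4 libraries, and are called Paneth-rule cells below, since the rule and not a sort or a stain chose them. The mean share over the Si8 replicates was 1.79% ± 0.753 (SD, n = 2), and the intervals cover counting error only, with each barcode taken as 1 cell.

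All 4 libraries came from RedMUC298trTg mice aged 6 to 8 weeks, a transgenic strain whose mCherry signal was used to sort the cells. Each tissue, Si8 and the distal colon (DC), has 2 libraries. The live cells had been sorted on mCherry, per the labels on its presence or on its absence, with a C57Bl6 mouse as the negative control, and the labels call the sorted cells goblet cells. Neither the number of mice behind a library nor whether a library holds cells with mCherry, without it or both is given in the sources used here, and nothing says that the replicates came from separate animals. Shares of cells therefore depend on the sort, and p-values measure the spread between these libraries, which may be technical. The files hold 26075303 and 53675821 UMIs in Si8 replicates 1 and 2, and 27136824 and 66880457 in DC replicates 1 and 2.

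Paneth cells sit at the base of the crypts of Lieberkühn, next to the stem cells, and fill large granules with lysozyme, alpha-defensins and other proteins that act on bacteria. In the mouse, alpha-defensins (also called cryptdins) leave the endoplasmic reticulum as inactive precursors that the protease Mmp7 cleaves. Paneth cells also make Wnt, EGF and Notch ligands for neighbouring stem cells. Goblet cells, which secrete the gel-forming mucin Muc2, belong to the same secretory lineage.

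Values of the chosen cells were compared within each library with those of all other kept Si8 cells (1490 and 2185 cells in replicates 1 and 2). Among these, 1267 and 1347 passed a goblet rule (at least 30 UMIs of Muc2 and 300 of Tff3 per 10000), and 9 and 62 an absorptive rule (under 10 of Muc2 and at least 200 over 8 absorptive genes). Absorptive cells should lack Paneth and goblet products, so the UMIs of such products in them were taken as a guide to free RNA. Free RNA was not measured, and the source of these UMIs was not tested. The class also held other markers, with 80 UMIs of 5 tuft markers in its 9 cells of replicate 1. Lyz1, its neighbour Lyz2 and every alpha-defensin gene were used by the rule or follow from it, and so are given as description with no test. Genes that vary together with Lyz1 or Defa24 are not independent of the choice either.

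Other cells came close to the thresholds. The lowest Lyz1 among members was 69.6 per 10000 in replicate 1 and 51.3 in replicate 2, and the highest Lyz1 of a cell that passed on Defa24 alone was 49.3 in each replicate. The lowest Defa24 among members was 353.6 and 328.7 per 10000 in replicates 1 and 2, and the highest of a cell that passed on Lyz1 alone was 226.1 and 248.6. Cells that passed on Defa24 alone were as frequent as members or more so, with 62 and 64 cells in replicates 1 and 2, of which 56 and 53 passed the goblet rule. Only 9 and 5 cells passed on Lyz1 alone. No cell of the distal colon passed, with 0 of 1859 in DC replicate 1, which allows a share of up to 0.161%, and 0 of 4917 in DC replicate 2, which allows up to 0.0610%. The highest Lyz1 of any DC cell was 39.1 and 88.0 per 10000 in replicates 1 and 2, but its highest Defa24 was 0.692 and 2.75.

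The label was checked with Mmp7 and Mptx2. Of the other given markers, Lyz1 and Defa24 made the rule and Defa21 follows from it as an alpha-defensin. Levels of summed counts are given per 1000000 UMIs outside the alpha-defensin genes, since defensins alone filled most of the members' RNA. Mmp7 stood at 7712 and 4960.3 in members of replicates 1 and 2, against 609 and 368 in the other cells. Mptx2, a mucosal pentraxin, stood at 10500 and 32619 in members and 2.35 and 25.7 in the other cells. By the GENCODE annotation of GRCm38, Lyz1 lies at chr10:117287797-117292868, Defa24 at chr8:21734494-21735471, Mmp7 at chr9:7692090-7699585 and Mptx2 at chr1:173274382-173277777. Every member had UMIs of Mmp7, while Mptx2 had at least 1 UMI in 12 of 19 and 48 of 52 members. These markers went with the label for the group as a whole, while 1 subgroup of 18 cells, described below, held little Mptx2 and little Defa21.

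Of barcode sequences among kept cells, 44 occurred in 2 libraries, 1 of them a member's, shared with DC replicate 2. By a doublet score, 2 members, both in replicate 2, were among the highest-scoring 18 and 40 Si8 barcodes that an expected doublet rate would remove from replicates 1 and 2. The goblet thresholds on Muc2 and Tff3 were passed by 8 members, 1 and 7 in replicates 1 and 2. No member reached the absorptive threshold.

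Most members had more UMIs than the median of the other cells, though makeup 2 cells of replicate 2, described below, mostly did not. They had a lowest, median and highest total of 4951, 31594 and 167505 UMIs in replicate 1 and 8878, 84648.5 and 211072 in replicate 2. The other kept cells had medians of 17843 and 21033. Members above these medians were 14 of 19 in replicate 1, 7 of each makeup group described below, and 44 of 52 in replicate 2, of which 41 were of makeup 1 and 3 of makeup 2. Genes detected per cell did not follow, with medians of 3179 and 3694.5 in members and 3106.5 and 3663 in the other cells. Mitochondrial UMIs made up a median of 1.502% and 0.884% of a member's total, against 2.89% and 3.73% in other cells.

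Most of the surplus of UMIs was in the alpha-defensins. The 29 family genes took 69.2% and 71.2% of all UMIs of the members in replicates 1 and 2, and 0.526% and 0.594% in the other cells. Outside these genes a member held 18161 and 24758 UMIs on average in replicates 1 and 2, and another cell 16551 and 22295. Members, with 4.33% and 8.37% of the UMIs of kept cells, held 85.6% and 91.6% of all alpha-defensin UMIs of their library. Per cell, the defensin share ran over a wide range, with lowest, median and highest values of 3.95%, 60.2% and 86.6% in replicate 1 and 3.51%, 73.5% and 81.1% in replicate 2.

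**Figure D1:**
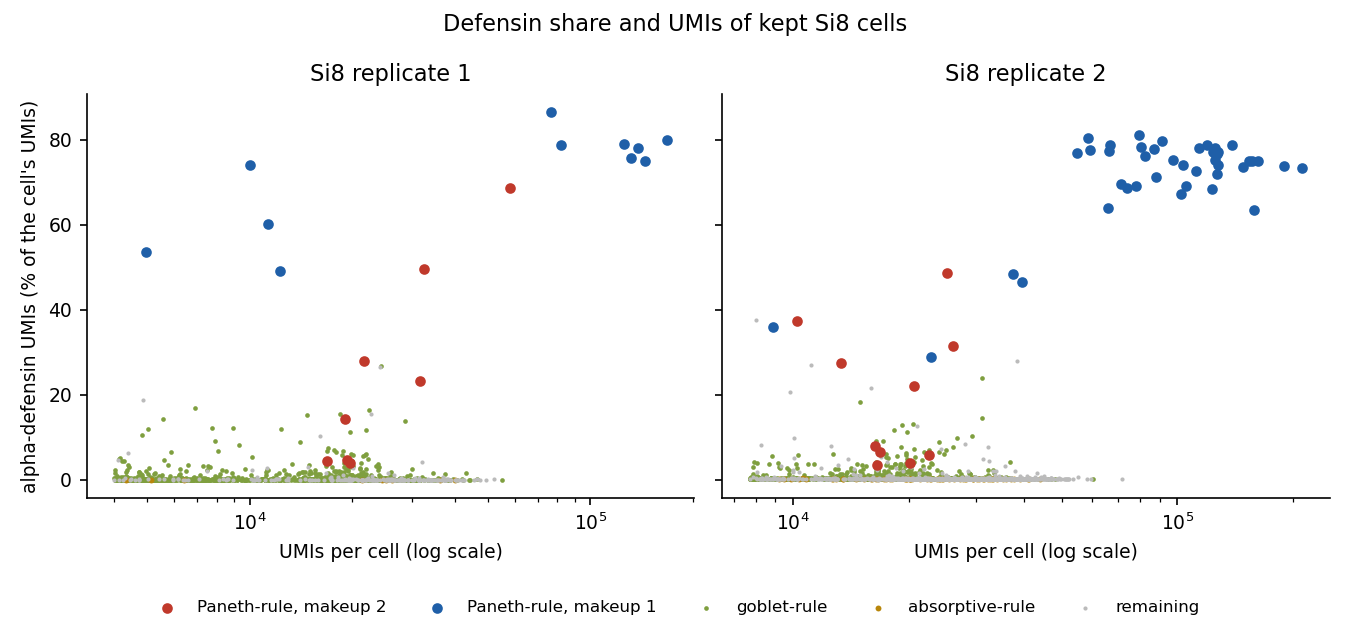
Each point is 1 kept Si8 cell, with its UMIs on a log axis and the percent of them from the 29 alpha-defensin genes on the other axis, 1 panel per replicate. Members of makeup 1 (blue) gather at high totals and shares with medians of 75.8% and 74.98%, while members of makeup 2 (red) have medians of 18.8% and 14.96% and lie among the totals of goblet-rule cells (green).

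The 29 alpha-defensin genes lie in 1 cluster on chromosome 8, at chr8:20943694-21735471 of GRCm38, and 27 of them had UMIs in members. Defa24 led with 27.3% and 25.96% of the members' alpha-defensin UMIs in replicates 1 and 2. Defa20 followed with 14.6% and 12.5%, Gm15284 with 11.4% and 12.7% and Defa22 with 9.69% and 11.1%. Gm15308 held 9.08% and 7.91% and Defa21 8.31% and 10.6%. Others that held at least 1% in both replicates were Gm14851 with 3.96% and 4.1%, AY761184 with 2.38% and 2.14%, Gm14850 with 2.33% and 2.1%, Gm21002 with 1.98% and 1.81% and Defa17 with 1.47% and 1.24%. Defa25 and AY761185 had no UMI in any member.

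How the UMIs divide between near-identical genes is uncertain. Over the last 200 bases of the transcripts, the part a 3' library reads, the 66 pairs of these 12 genes were 55.0% to 99.5% identical with a median of 75.5%, and 6 pairs reached 95%. Among those pairs were Defa20 and Gm15308 (99.5%), Gm15308 and Gm21002 (99.5%), Defa20 and Gm21002 (99.0%), Defa22 and Defa21 (99.0%), and Defa24 and Gm15284 (98.0%). The split within these pairs is reported as counted by the authors. Gm15284 nevertheless stood opposite to its near-copy Defa24 in the groups of members given below.

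The sequences just upstream of the genes are shown for members of the family that behaved differently among the cells. The RefSeq promoter table of GRCm38.p6 matched 17 of the 29 genes, 7 of them among the 12 above. Each line gives the 130 bases before the annotated start, 5′ to 3′ on the strand of the gene, with ATCAAAG, a form of the site bound by TCF factors of the Wnt pathway, and TATAAA in capitals.
Defa20 (chr8:21509128-21509257, plus strand): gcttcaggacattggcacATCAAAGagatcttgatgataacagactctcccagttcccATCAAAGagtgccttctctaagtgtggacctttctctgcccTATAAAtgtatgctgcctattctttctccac
Defa22 (chr8:21162147-21162276, plus strand): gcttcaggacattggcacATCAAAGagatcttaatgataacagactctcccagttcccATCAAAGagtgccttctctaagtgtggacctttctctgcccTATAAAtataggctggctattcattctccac
Gm15284 (chr8:21134520-21134649, plus strand): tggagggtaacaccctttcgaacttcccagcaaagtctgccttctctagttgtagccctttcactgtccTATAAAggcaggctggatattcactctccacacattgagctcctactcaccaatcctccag
Gm14851 (chr8:21096051-21096180, minus strand): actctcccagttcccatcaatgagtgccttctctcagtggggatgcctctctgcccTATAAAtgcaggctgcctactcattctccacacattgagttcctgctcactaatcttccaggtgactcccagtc
Gm14850 (chr8:21565256-21565385, plus strand): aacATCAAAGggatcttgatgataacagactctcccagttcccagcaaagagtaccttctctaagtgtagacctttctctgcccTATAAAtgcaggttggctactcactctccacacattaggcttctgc
The window of Defa21 carries the same letters as that of Defa22. RefSeq names Gm15284 Defa30, Gm14851 Defa38 and Gm14850 Defa37.

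On either strand, 8 of the 17 windows held at least 2 ATCAAAG and 4 held 1, while 5 held none. Of all 32851 promoter windows of the table cut to the same length, 1.56% held at least 1 ATCAAAG and 0.0396%, or 13 windows, held 2 or more. Of these 13 windows, 8 belonged to alpha-defensin genes. TATAAA stood in 16 of the 17 windows, against 6.83% of all windows. The windows of Gm15284 and Gm14851 held no ATCAAAG, and their TATAAA begins at positions -61 and -74 from the annotated start, while in Defa20 and Defa22 it begins at -31. Windows of equal length thus reach less far above TATAAA in Gm15284 and Gm14851, and sites farther up are not counted. The windows of Lyz1, Mptx2, Ang4 and Itln1 held no ATCAAAG. A match is a run of letters in these windows and was not related to binding.

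The members fell into 2 groups by defensin makeup. The grouping was by k-means on the centred log ratios of the 12 genes, so the shares of these genes are its input and are given as description. Makeup 2 was the smaller group with 8 and 10 cells in replicates 1 and 2, and makeup 1 held 11 and 42 cells. With each cell thinned to 2000 UMIs before grouping, 70 of the 71 cells kept their group.

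Makeup 2 was mostly Defa24. Defa24 held 50.7% and 67.2% of alpha-defensin UMIs in makeup 2 cells of replicates 1 and 2, against 24.8% and 25.5% in makeup 1 cells. Per cell its lowest, median and highest share was 42.8%, 80.8% and 98.1% in makeup 2 and 21.1%, 27.1% and 41.2% in makeup 1 of replicate 1. In replicate 2 these were 42.5%, 86.2% and 96.2% in makeup 2 and 21.5%, 25.2% and 38.3% in makeup 1. The groups did not overlap in either library, but Defa24 was among the genes that made them, over both libraries together. Defa17 followed Defa24, with 5.04% and 7.02% in makeup 2 and 1.09% and 1.17% in makeup 1. AY761184 held 5.62% and 5.46% of the summed UMIs in makeup 2 and 2.04% and 2.1% in makeup 1, but its median per cell was lower in makeup 2, at 0.263% and 0.265% against 1.54% and 1.94% in makeup 1, so its sums rested on a few makeup 2 cells with up to 9.13% and 16.9%. Per cell, Defa17 had medians of 5.91% and 4.71% in makeup 2 and 1.06% and 1.13% in makeup 1, and its ranges overlapped.

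The genes that makeup 2 nearly lacked included Gm14851, Defa21, Defa22 and Gm15284. Gm14851 held 0.00807% and 0.0426% in makeup 2 and 4.38% and 4.15% in makeup 1. Defa21 held 0.892% and 0.173% in makeup 2 and 9.09% and 10.7% in makeup 1. Its near-copy Defa22 held 1.46% and 0.503% in makeup 2 and 10.6% and 11.2% in makeup 1. Gm15284, whose transcript end is 98.0% identical to that of Defa24, held 0.759% and 1.81% in makeup 2 and 12.6% and 12.9% in makeup 1. Defa20, which has 2 ATCAAAG upstream as Defa21 and Defa22 do, held 17.1% and 6.94% in makeup 2 and 14.4% and 12.6% in makeup 1 of the sums. Its median per cell was lower in makeup 2 in both libraries, at 5.58% and 1.64% against 14.03% and 12.4% in makeup 1, and 1 cell held 53.4% of the alpha-defensin UMIs of makeup 2 in replicate 1.

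**Figure D2:**
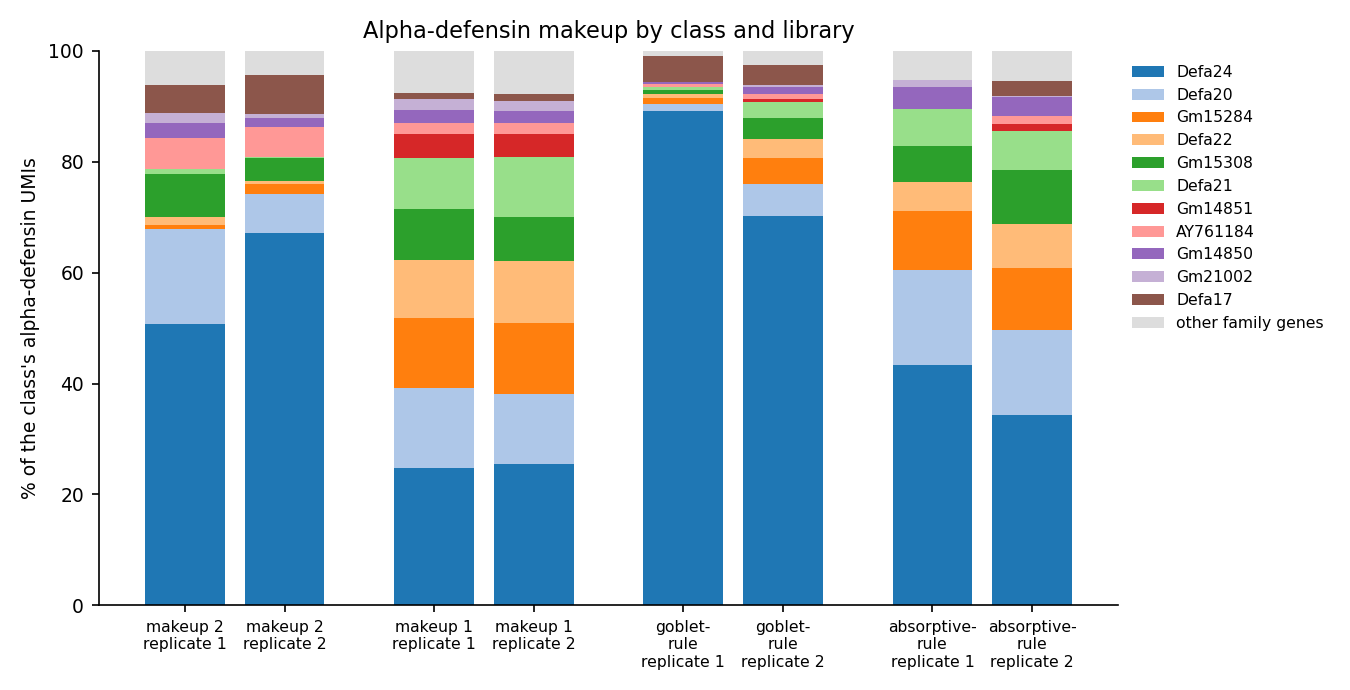
Stacked bars give the percent of alpha-defensin UMIs from each of 11 leading genes, and from the rest of the family in grey, for the summed cells of each class and replicate. Defa24 fills 50.7% and 67.2% of the makeup 2 bars and 24.8% and 25.5% of the makeup 1 bars, and 89.2% and 70.1% of the goblet-rule bars.

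With 3 groups in place of 2, all 53 makeup 1 cells stayed together and makeup 2 divided. One subgroup of 4 and 6 cells in replicates 1 and 2 held 89.3% and 80.6% Defa24, with 59.2 and 55.2 Defa24 UMIs for each of Defa20. The other, of 4 cells in each replicate, held 47.8% and 59.9% Defa24, with 2.61 and 6.03 Defa24 UMIs for each of Defa20. Among all members that ratio was 1.86 and 2.08. In absorptive-rule cells, taken as a guide to free RNA, it was 2.54 and 2.23, on 13 and 535 Defa20 UMIs. In goblet-rule cells it was 71.3 and 12.0, and in cells that passed on Defa24 alone 241 and 63.3. The goblet-rule value rested largely on the 56 and 53 goblet-rule cells with Defa24 over its threshold, which held 1019 and 1277 Defa24 UMIs per cell at 627 and 98.8 for each of Defa20. The other 1211 and 1294 goblet-rule cells held 32.9 and 46.7 Defa24 UMIs per cell with medians of 5 and 22, at 31.4 and 6.05 for each of Defa20. Absorptive-rule cells held 3.67 and 19.3 per cell with medians of 4 and 17, so the medians were close while the ratios differed.

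Makeup 2 cells were smaller and poorer in defensin than makeup 1 cells. Their median total was 20645 and 18443.5 UMIs in replicates 1 and 2, against 81904 and 102775 in makeup 1. Alpha-defensins took 34.1% and 20.02% of the UMIs of makeup 2 and 77.7% and 73.5% of those of makeup 1. Outside the defensins a makeup 2 cell held 17989 and 15014 UMIs on average, and a makeup 1 cell 18286 and 27078. Totals overlapped, as 5 makeup 1 cells, 4 and 1 in replicates 1 and 2, had under 20000 UMIs.

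Other Paneth products divided the makeups unequally. With 8 makeup 2 cells in replicate 1, under the 10 cells set as a minimum for a test, these are values with no test. Mptx2 stood at 334 and 79.9 in makeup 2 of replicates 1 and 2, against 17773 and 36915 in makeup 1. Ang4, an angiogenin with activity against bacteria, stood at 69.5 and 366 in makeup 2 and 31833 and 36814 in makeup 1. In single cells, Ang4 reached at most 1.58 and 14.7 UMIs per 10000 in makeup 2 of replicates 1 and 2, while its median in makeup 1 was 71.1 and 97.3. Clps, which encodes colipase, stood at 1313 and 1159 in makeup 2 and 9530.5 and 9307 in makeup 1. Pnliprp2, a pancreatic lipase-related protein, stood at 111 and 86.6 in makeup 2 and 1238 and 1728 in makeup 1. The lectin Itln1 was the least uneven of these, at 26953 and 19655 in makeup 2 and 97990 and 82855 in makeup 1. Lyz1, used by the rule, stood at 39218 and 17643 in makeup 2 and 177750 and 170420 in makeup 1, against 218 and 337 in other Si8 cells. Lyz2, the macrophage-type lysozyme gene beside Lyz1, stood at 34.7 and 19.98 in makeup 2 and 254 and 186 in makeup 1.

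Mmp7 and Habp2 did not divide in this way. Mmp7 stood at 7838 and 5228 in makeup 2 and 7621 and 4925 in makeup 1. Habp2, a secreted serine protease, stood at 146 and 86.6 in makeup 2 and 149 and 152 in makeup 1. Per UMI outside the defensins, makeup 2 thus held Mmp7 RNA at about the level of makeup 1, beside far fewer defensin UMIs. Per cell, Mmp7 averaged 141 and 78.5 UMIs in makeup 2 of replicates 1 and 2 and 139 and 133 in makeup 1.

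Other genes stood higher in makeup 2. Retnlb, a resistin-like protein, stood at 1028 and 1099 in makeup 2 and 209 and 147 in makeup 1. Per cell it averaged 18.5 and 16.5 UMIs in makeup 2 and only 0.445 and 0.195 in goblet-rule cells. The chemokine Ccl9 stood at 1397 and 1419 in makeup 2 and 343 and 349 in makeup 1. Reg4, a lectin of secretory cells, stood at 4239 and 5415 in makeup 2 and 2004 and 3012 in makeup 1. A makeup 2 cell averaged 25.1 and 21.3 Ccl9 UMIs and 76.25 and 81.3 Reg4 UMIs. A makeup 1 cell averaged 6.27 and 9.45 Ccl9 UMIs and 36.6 and 81.5 Reg4 UMIs. Reg4 UMIs per cell were thus higher in makeup 2 in replicate 1 only, and about equal in replicate 2. Among makeup 2 cells of replicate 2 Reg4 was uneven, and several held little or none of it. A goblet-rule cell averaged 2.835 and 4.03 Ccl9 UMIs and 1.60 and 4.29 Reg4 UMIs. Txndc5, a disulfide isomerase of the endoplasmic reticulum, stood at 702 and 972 in makeup 2 and 209 and 338 in makeup 1. Of 2476 genes at 50 or more in at least 1 of the sums, 67 (2.71%) were over 2-fold higher in makeup 2 in both libraries, and 27 (1.09%) over 2-fold lower. Of 31 goblet markers 8 were higher and 0 lower by this measure, and of 14 Paneth marker genes outside the defensins 0 were higher and 6 lower.

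Goblet markers as a sum were higher in makeup 2, though not each of them was in each library. The summed level of 8 goblet markers was 134130 and 236490 in makeup 2 of replicates 1 and 2 and 70950 and 83278 in makeup 1, against 262180 and 248120 in goblet-rule cells and 3397 and 7080 in absorptive-rule cells. No goblet marker of the 8 was at 0 in either makeup. Per cell of replicate 1, Zg16 averaged 39 UMIs in makeup 2 and 87.3 in makeup 1, Fcgbp 15.6 and 32, Clca1 5.25 and 10.4. In the same order Spink4 had 1498 and 810, Agr2 419 and 101, Tff3 339 and 176, and Muc2 90.6 and 79.3. Spink4 gave 11986 of the 19303 UMIs of the 8 markers in makeup 2 of replicate 1. A goblet-rule cell averaged only 455 and 552 Spink4 UMIs in replicates 1 and 2. In replicate 2 a makeup 2 cell averaged 1428 and a makeup 1 cell 877, so the sum is not a measure of goblet RNA alone. The goblet thresholds were passed by 6 of 18 makeup 2 cells, 1 and 5 in replicates 1 and 2, and by 2 of 53 makeup 1 cells, both in replicate 2. Per cell, Zg16, a lectin of mucus, had a lowest, median and highest level of 23.3, 48.9 and 1331 per 10000 in makeup 2 of replicate 2, and of 7.73, 11.6 and 20.1 in makeup 2 of replicate 1. At 500 or more Zg16 UMIs per 10000 outside the defensins stood 3 makeup 2 cells (964 to 1426) and 3 makeup 1 cells (704 to 984), all of replicate 2. The 2 makeup 1 cells that passed the goblet thresholds were among these 3. Both had a doublet score of 0.178, where the highest of a member was 0.201. Their levels were alike, with 485.7 and 525.6 Zg16 UMIs and 58.7 and 59.5 Muc2 UMIs per 10000 of all UMIs. The part of goblet RNA or of doublets in the makeup groups was not tested. Among the highest doublet scores were 2 makeup 1 cells and no makeup 2 cell. Another makeup 1 cell of replicate 2 also had a score of 0.178, so this count cut through equal scores.

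Outside the defensins, the largest differences of all members from the other Si8 cells were in secreted products. UMIs of each class were added up by library and compared with edgeR's quasi-likelihood test with library as a block. Of 11208 genes tested, 422 (3.77%) were higher and 341 (3.04%) lower in members at an adjusted p under 0.05, 6.81% in all, and the median log2 fold change was -0.07. Sums from only 2 libraries leave 1 residual degree of freedom, so the spread is largely one shared across genes. Fold changes are on the log2 scale with their standard error, and they stand above the log2 ratio of the levels given here by a median of 0.35, since the 2 are scaled differently. With library totals alone as the scale the median of all tested genes was -2.22, so directions are relative to that scaling. Counts of list calls are also given, where they differ, on library totals alone, in the fit without the library block and with DESeq2.

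Mptx2 rose the most, with 10500 and 32619 in members of replicates 1 and 2, against 2.35 and 25.7 in other cells, a log2 fold change of 11.5 ± 0.74 (edgeR adjusted p = 8.6e-51). Clps stood at 6103 and 8357 in members and 10.8 and 17.98 in other cells, a log2 fold change of 9.34 ± 0.52. Pnliprp2 stood at 768 and 1536 in members and 2.19 and 3.67 in other cells, a log2 fold change of 8.95 ± 0.35. Ang4 stood at 18585 and 32563 in members and 80.3 and 168 in other cells, a log2 fold change of 8.07 ± 0.67. Itln1 stood at 68362 and 75485 in members and 462 and 449.5 in other cells, a log2 fold change of 7.64 ± 0.82. All of these passed at an edgeR adjusted p of 4.8e-18 or less, and each was higher in members in both libraries. The other large rises were those of Habp2 (6.47 ± 0.28), Bambi (5.94 ± 0.29), which encodes a decoy receptor of the TGF-beta family, Tmed6 (5.8 ± 0.26), a p24 family protein of early secretory transport, Fam46c (5.37 ± 0.28), a non-canonical poly(A) polymerase, and Retnlb (4.8 ± 0.25). Bambi stood at 75.3 and 229 in members and 2.72 and 3.63 in other cells, and Fam46c at 72.5 and 106 in members and 3.33 and 2.67 in other cells. As log2 ratios with 1 added, which shrinks low levels, replicate 1 alone gave 7.73 for Pnliprp2, 4.23 for Bambi and 4.0 for Fam46c.

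Of the Paneth marker genes outside the defensins, 17 of 21 tested were higher in members and 0 lower, with a median log2 fold change of 3.55. With library totals alone as the scale, 13 were higher and 5 lower and 15 of these 17 stayed above 0. With makeup 2 members alone all 17 stayed above 0, but only 11 of the 21 were called higher. Ang4 averaged 1.25 and 5.5 UMIs per makeup 2 cell of replicates 1 and 2, against 1.33 and 3.75 per other Si8 cell. Reg4 was among them, at 2936 and 3292 in members and 103 and 194 in other cells, a log2 fold change of 4.79 ± 0.34. The members' Mmp7 gave 4.05 ± 0.40 (edgeR adjusted p = 1e-21). This list was drawn up with earlier results of these cells known, so its count is a description of known markers.

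Genes through which Paneth cells act on stem cells were uneven. Wnt3, the Wnt ligand that Paneth cells give to stem cells, stood at 107 and 92.4 in members and 5.68 and 5.07 in other cells, a log2 fold change of 4.58 ± 0.26 (edgeR adjusted p = 1.8e-65). It was found at 1.95 and 2.29 UMIs per member cell and 0.0663 and 0.072 per goblet-rule cell. Egf rose by 2.27 ± 0.72 (edgeR adjusted p = 0.029), on 6 UMIs in the members of each replicate, and its log2 ratio in replicate 2 alone was 1.01. The Notch ligands Dll4 (-0.06 ± 0.41) and Dll1 (-0.53 ± 0.32) did not pass, with 11.6 and 10.1 for Dll4 in members and 15.9 and 13.98 in other cells. Hbegf, an EGF family ligand, was lower at 49.3 and 90.9 in members and 210.1 and 246 in other cells (log2 fold change -1.28 ± 0.25). Of 13 genes tested from the list of niche ligands, 3 were higher and 1 lower. The third higher gene, Cd44, encodes a cell-surface receptor and not a ligand. With library totals alone as the scale 1 gene of the list was higher and 10 lower. Without the block 1 was higher and 0 lower, and with DESeq2 2 were higher and 1 lower.

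Targets and receptors of the Wnt pathway were higher in part. Of 30 genes tested for Wnt, Eph receptors and stem cells, 6 were higher and 4 lower with a median of 0.52, while with library totals alone 3 of the 6 fell below 0. The 4 lower calls became 1 both without the block and with DESeq2, and the higher ones 6 and 5. Ephb3, an Eph receptor that keeps Paneth cells at the crypt base, stood at 49.3 and 20.2 in members and 2.27 and 3.02 in other cells, a log2 fold change of 3.77 ± 0.42. Lgr5, the stem cell receptor for R-spondins and a Wnt target, stood at 28.98 and 24.1 in members and 0.77 and 4.58 in other cells, a log2 fold change of 3.47 ± 0.44 (edgeR adjusted p = 3.6e-13). That is 0.526 and 0.596 UMIs per member cell, against 0.00552 and 0.00594 per goblet-rule cell. As log2 ratios with 1 added, replicate 2 alone gave 2.53 for Ephb3 and 2.39 for Lgr5. Smoc2 (1.9 ± 0.26) and Hopx (1.41 ± 0.27), markers of stem cells, rose as well, but both fell below 0 with library totals alone and with every cell thinned to 2000 UMIs. Olfm4, another stem cell marker, had 0 and 3.88 in members of replicates 1 and 2 and did not pass, and Ephb2 gave 0.29 ± 0.30 and did not pass. Ccnd2, a D-type cyclin, was lower at 84.04 and 182 in members and 613 and 587 in other cells (log2 fold change -1.79 ± 0.25).

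Of the transcription factors of the secretory lineage, 5 of 29 tested were higher and 0 lower, with 3 of the 5 above 0 on library totals alone. Bhlha15 (also called Mist1), which drives the build-up of secretory organelles, stood at 78.2 and 32.6 in members and 8.15 and 5.81 in other cells, a log2 fold change of 3.19 ± 0.30 (edgeR adjusted p = 3.1e-24). Nupr1, a stress-induced chromatin protein, stood at 2846 and 2255 in members and 577 and 204 in other cells (3.23 ± 0.31). Sox9, which mice need to form Paneth cells, stood at 165 and 118 in members and 45.6 and 46.3 in other cells (1.93 ± 0.23), though it fell to -0.17 with library totals alone. Mecom (2.31 ± 0.37) and Ets2 (0.73 ± 0.23) completed the 5, Ets2 with the opposite sign on library totals alone. The factors shared with goblet cells did not pass, with log2 fold changes of 0.31 ± 0.23 for Atoh1, 0.27 ± 0.22 for Spdef, -0.55 ± 0.48 for Gfi1 and 0.17 ± 0.23 for Xbp1, and Atoh1, Spdef and Xbp1 fell below 0 on library totals alone.

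Genes for folding in the endoplasmic reticulum were higher in part, 14 of 53 tested with 0 lower and a median of 0.26, but on library totals alone only 4 of these 14 stayed above 0, and 4 genes were called higher without the block and 5 with DESeq2. Qsox1, a sulfhydryl oxidase that forms disulfide bonds, stood at 646 and 481 in members and 372 and 260.2 in other cells (1.19 ± 0.23, edgeR adjusted p = 2.2e-05). Dnajb9, a co-chaperone of the unfolded protein response, gave 1.3 ± 0.25. Sel1l and Edem2, which pass misfolded proteins on for degradation, gave 1.2 ± 0.24 and 1.07 ± 0.22, and the disulfide isomerase P4hb gave 0.90 ± 0.27. These 5 genes fell below 0 on library totals alone.

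Of genes for entry into the endoplasmic reticulum and transport to the Golgi, 9 of 59 tested were higher and 1 lower, with 2 of the 9 above 0 on library totals alone, and 2 called higher without the block and 3 with DESeq2. After Tmed6, the coatomer subunit Copz2 rose the most, at 110.1 and 143 in members and 31.7 and 24.98 in other cells (2.59 ± 0.24). The signal peptidase subunit Spcs3 gave 1.27 ± 0.23, while the coatomer subunit Copb1 was lower at -0.86 ± 0.26 (edgeR adjusted p = 0.019). The zinc transporter Slc30a2, which loads zinc into secretory vesicles, stood at 40.6 and 30.3 in members and 1.74 and 3.61 in other cells (3.92 ± 0.38, edgeR adjusted p = 3.2e-22). It was the only one of 30 granule and exocytosis genes tested that was higher, with 2 lower.

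Autophagy genes, several of which alter Paneth granules when lost in mice, were higher for 5 of 32 tested and lower for 0, with only Atg7 of the 5 above 0 on library totals alone and 3 called higher both without the block and with DESeq2. Atg7, the enzyme that activates the ubiquitin-like proteins of autophagy, stood at 60.9 and 55.1 in members and 14.3 and 16.1 in other cells (2.27 ± 0.26, edgeR adjusted p = 9e-16). The lysosomal membrane protein Lamp2 gave 2.07 ± 0.23, the cargo receptor Sqstm1 1.24 ± 0.22, Gabarapl1 1.23 ± 0.32 and Map1lc3b 0.72 ± 0.22. Atg16l1, a gene linked to Crohn's disease, gave -0.09 ± 0.43 and did not pass, with 8.69 and 10.1 in members and 12.4 and 14.4 in other cells. Nod2, a sensor of bacterial peptides, had no UMI in members. The potassium channel Kcnn4 gave -0.42 ± 0.32 and did not pass.

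**Figure D3:**
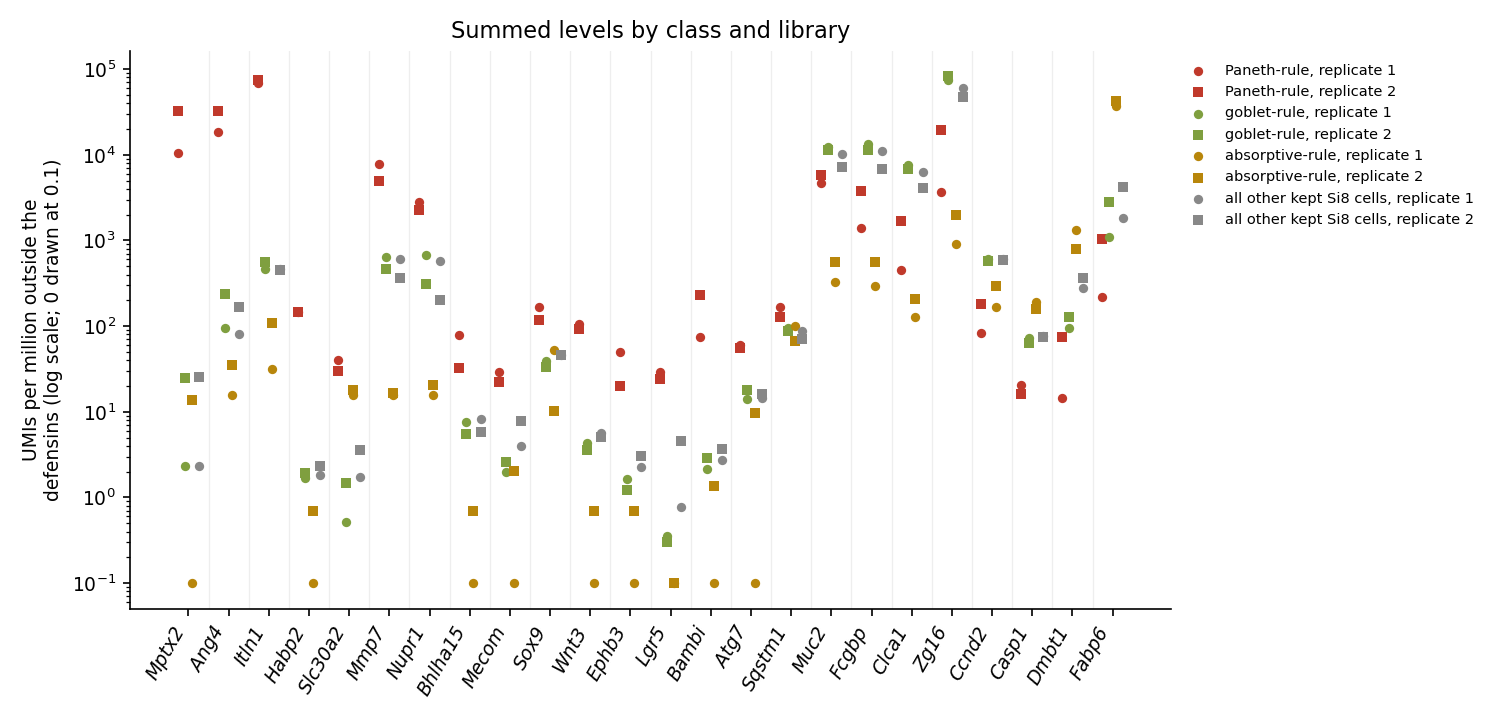
Summed levels of 24 genes on a log axis, in UMIs per 1000000 outside the alpha-defensins, with values of 0 drawn at 0.1, for Paneth-rule, goblet-rule, absorptive-rule and all other kept Si8 cells, circles for replicate 1 and squares for replicate 2. Mptx2, Ang4, Itln1 and Habp2 lie far above the other classes in Paneth-rule cells of both replicates, and Zg16 lies below goblet-rule cells in both.

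Genes lower in members were led by products of goblet and absorptive cells. Dmbt1, a mucin-like protein that binds bacteria, stood at 14.5 and 73.8 in members and 279 and 362 in other cells, a log2 fold change of -2.36 ± 0.26 (edgeR adjusted p = 9e-17). Zg16 stood at 3686 and 19542 in members and 60814 and 47643 in other cells (-2.32 ± 0.68, edgeR adjusted p = 0.013), so its level differed widely between the libraries of members. The mucus protein Clca1 stood at 452 and 1697 in members and 6269 and 4042 in other cells (-2.13 ± 0.38). The antimicrobial lectin Reg3b stood at 1719 and 1536 in members and 8664 and 5234 in other cells (-1.71 ± 0.38). The ileal bile acid binding protein Fabp6 (-2.16 ± 0.31), the intestinal homeobox factor Isx (-1.98 ± 0.34), Serpina1b (-1.74 ± 0.25), a serine protease inhibitor, the inflammatory protease Casp1 (-1.72 ± 0.31) and Rgs2 (-1.63 ± 0.25), a regulator of G protein signalling, completed the 10 largest falls with Ccnd2. Replicate 1 carried much of several falls. As log2 ratios with 1 added and no test, replicate 2 alone gave -0.82 for Zg16 and -0.78 for Clca1. Replicate 1 alone gave -3.86 for Zg16, -3.61 for Clca1, -3.94 for Dmbt1, -3.67 for Isx, -2.98 for Serpina1b and -2.76 for Rgs2.

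Of 34 goblet markers tested, 4 rose and 8 fell, while without the block 2 rose and 0 fell, with DESeq2 4 rose and 5 fell, and on library totals alone 1 rose and 30 fell. Muc2, the gel-forming mucin, stood at 4628 and 5843 in members and 10184 and 7144 in other cells and did not pass (-0.37 ± 0.42, edgeR adjusted p = 0.75). Tff3, a trefoil peptide, gave -1.55 ± 0.65 and did not pass (edgeR adjusted p = 0.15). Fcgbp, a mucus protein, was lower at -1.57 ± 0.43 and S100a6 at -1.59 ± 0.31, while Ccl9 was higher at 1.95 ± 0.23, with -0.14 on library totals alone. The log2 ratio of Fcgbp was -0.39 in replicate 2 alone and -2.81 in replicate 1 alone. A member cell held 84.1 and 145 Muc2 UMIs on average in replicates 1 and 2, a makeup 2 cell 90.6 and 166 and a makeup 1 cell 79.3 and 139.6. Goblet-rule cells, chosen on Muc2, held 189 and 224, and absorptive-rule cells 6.89 and 13.2. Both makeups thus held several times the Muc2 of absorptive-rule cells, which were themselves chosen for low Muc2.

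Of 32 absorptive markers tested, 17 fell and 1 rose, with a median of -1.15. Only 2 fell without the block and 4 with DESeq2. Cyp4f14, a fatty acid hydroxylase, stood at 0 and 6.21 in members and 21.6 and 38.7 in other cells. Slc51b, a subunit of the bile acid exporter, stood at 2.9 and 13.2 in members and 44.4 and 74.7 in other cells. The disaccharidase Sis stood at 5.8 and 14.8 in members and 27.05 and 67.1 in other cells. The 1 higher gene was the fructose transporter Slc2a5. Of 35 cycling markers 14 fell and 0 rose, but 0 fell without the block and 2 with DESeq2. Among the 14 were Top2a at 5.8 and 34.2 in members and 56.1 and 112 in other cells, Birc5 (-1.24 ± 0.29), Cenpf (-1.61 ± 0.36) and Ccna2 (-1.59 ± 0.38). In replicate 1 alone the log2 ratios were -2.77 for Top2a, -2.32 for Birc5 and -3.70 for Ccna2. Against goblet-rule cells this list showed 4 higher and 0 lower, so its direction depended on which cells members were set against.

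Genes of immune sensing were lower for 5 and higher for 0 of 43 tested, including Pycard, the adaptor of the inflammasome, at 220.2 and 381 in members and 599 and 1011 in other cells (-1.07 ± 0.25). Without the block 1 of this list was lower and with DESeq2 2. The chemokine Ccl25 gave -1.13 ± 0.27. Genes of glycolysis and oxidative phosphorylation were lower for 7 and higher for 0 of 41, with hexokinase Hk2 at -0.95 ± 0.24, lactate dehydrogenase Ldha at -0.84 ± 0.24 and citrate synthase Cs at -0.92 ± 0.26, though none of this list was called without the block or with DESeq2. Notch receptors and targets had 0 calls of 15, tuft markers 0 of 11 and mitochondrially encoded genes 0 of 13. Dissociation stress genes had 2 higher and 1 lower of 34, and none of either kind without the block or with DESeq2. On library totals alone 13 of 15 Notch, 13 of 13 mitochondrial, 34 of 34 stress, 40 of 41 glycolysis and oxidative phosphorylation and 39 of 43 immune sensing genes were lower.

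**Figure D4:**
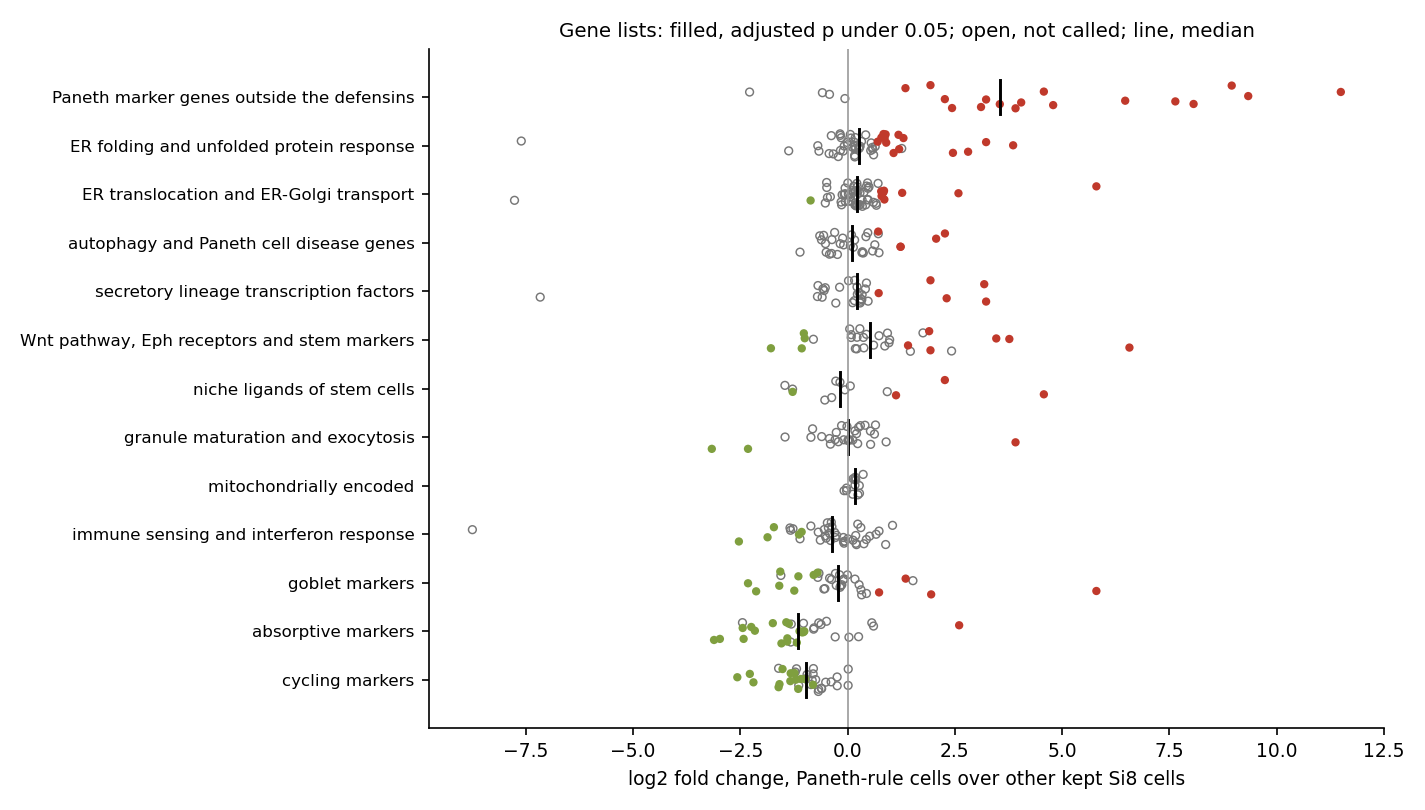
Each point is 1 tested gene of a list, at its log2 fold change of Paneth-rule over other kept Si8 cells, filled red where higher and green where lower at an edgeR adjusted p under 0.05 and open otherwise, with a bar at the list's median. The Paneth markers outside the defensins lie mostly right of 0 with a median of 3.55, and the absorptive and cycling lists mostly left of 0.

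Set against goblet-rule cells alone, the nearest secretory class, more genes differed. Of 10755 genes tested, 575 (5.35%) were higher in members and 807 (7.5%) lower, 12.8% in all, and fold changes stand above the log2 ratio of levels by a median of 0.11. Members of both comparisons are the same cells, and goblet-rule cells are part of the other cells above, so the 2 comparisons are not independent. With library totals alone the median of all tested genes was -1.97. Muc2 and Tff3 were used to choose goblet-rule cells and have no test here.

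Lgr5 stood at 28.98 and 24.1 in members and 0.358 and 0.299 in goblet-rule cells, a log2 fold change of 6.42 ± 0.58 (edgeR adjusted p = 5e-26). Wnt and stem genes were higher for 11 and lower for 3 of 27 tested, with Ephb3 at 4.53 ± 0.44, Smoc2 at 2.75 ± 0.23 and Sox9 at 2.06 ± 0.18. Wnt3 stood at 107 and 92.4 in members and 4.29 and 3.62 in goblet-rule cells (4.79 ± 0.23). Dll1, a Notch ligand, was lower at 20.3 and 17.9 in members and 33.1 and 42.8 in goblet-rule cells (-0.96 ± 0.29, edgeR adjusted p = 0.0093). The transcription factor Mecom stood at 28.98 and 22.5 in members and 1.99 and 2.62 in goblet-rule cells (3.48 ± 0.42), Bhlha15 gave 3.03 ± 0.28 and Nupr1 2.58 ± 0.23. Atoh1 (-0.27 ± 0.17), Spdef (-0.25 ± 0.17) and Gfi1 (-1.13 ± 0.43) did not pass, nor did Kcnn4 (0.83 ± 0.33). The Paneth products that led above led here too, from Mptx2 (11.27 ± 0.64), Clps (8.83 ± 0.38) and Pnliprp2 (8.44 ± 0.26) to Ang4 (7.47 ± 0.58), Itln1 (7.24 ± 0.76), Habp2 (6.43 ± 0.24), Bambi (6.08 ± 0.24), Fam46c (5.83 ± 0.25), Tmed6 (5.58 ± 0.19) and Rnase1 (4.93 ± 0.21), a secreted ribonuclease. The log2 ratio of Lgr5 with 1 added, which shrinks low levels, was 3.69 in replicate 2 alone and 3.84 in replicate 1 alone. Bambi and Fam46c gave 4.31 and 4.41 in replicate 1 alone, and Habp2 and Ephb3 5.42 and 2.96 in replicate 2 alone.

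Of 32 goblet markers tested beside Muc2 and Tff3, 20 fell and 3 rose, while 13 fell without the block and 10 with DESeq2. Zg16 stood at 3686 and 19542 in members and 75629 and 82865 in goblet-rule cells (-3.1 ± 0.69, edgeR adjusted p = 0.00017), and Clca1 at 452 and 1697 in members and 7672 and 6757 in goblet-rule cells (-2.86 ± 0.31). Fcgbp gave -2.3 ± 0.36, S100a6 -2.3 ± 0.26 and the protease Capn9 -2.05 ± 0.24, and Serpina1b (-2.47 ± 0.20), Rgs2 (-2.34 ± 0.21), the steroid dehydrogenase Hsd17b2 (-2.29 ± 0.26), Tppp3 (-2.23 ± 0.28) and Isx (-2.11 ± 0.30) were the other largest falls. In replicate 1 alone the log2 ratios were -4.33 for Zg16, -4.05 for Clca1, -4.21 for Hsd17b2 and -3.75 for Isx, and in replicate 2 alone -1.88 for Zg16 and -1.79 for Clca1. Agr2, a disulfide isomerase needed for mucin assembly, stood at 12943 and 9121 in members and 27688 and 27695 in goblet-rule cells and did not pass (-1.24 ± 0.49, edgeR adjusted p = 0.075). Folding genes divided, with 8 higher and 9 lower of 53 tested, against 4 higher and 3 lower without the block and 2 of each with DESeq2. Among the lower was Txndc5 at 414 and 412 in members and 1058 and 1050.2 in goblet-rule cells (-1.23 ± 0.20). Genes of glycolysis and oxidative phosphorylation were lower for 14 of 40, those of immune sensing for 9 of 41 and those of dissociation stress for 9 of 34, while 0, 0 and 1 were higher. Without the block these were lower for 7, 2 and 4, and with DESeq2 for 2 of each list. Stmn1, a tubulin-binding protein of dividing cells, was the named gene of the 4 higher cycling markers, at 75.3 and 119.6 in members and 19.4 and 46.3 in goblet-rule cells (1.7 ± 0.20), with -0.18 on library totals alone and -0.31 for makeup 2 alone. Of the cycling list 1 was higher without the block and 1 with DESeq2, and 28 were lower on library totals alone.

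Markers of other cell types were unevenly present in members. All 5 stromal markers (Col1a1, Col3a1, Dcn, Pecam1 and Acta2) had 0 UMIs, as had 4 of 6 immune markers (Ptprc, Cd3e, Cd79a and Csf1r). The sum of the 6 was 14.5 and 3.11 in members and 82.5 and 1.33 in other cells, on 5 and 4 UMIs in members. Of a longer list of immune markers 10 were tested, and H2-Aa was higher while Jchain, Igha and Igkc, genes of antibodies, were lower, with 0 UMIs of these 3 in members of replicate 2, but no call of this list was made without the library block or with DESeq2. H2-Aa, a class II antigen presentation gene, stood at 296 and 57.5 in members and 74.8 and 87.5 in other cells, so the libraries went opposite ways. Set against goblet-rule cells, 5 of 8 were higher and 0 lower, namely Ccl5, Igkc, Cd74, H2-Aa and H2-Ab1, and DESeq2 called 2 of the list. Cd74, the invariant chain of class II, stood at 1206 and 254 in members and 240.2 and 169.8 in goblet-rule cells. Enteroendocrine Neurod1 and Tph1 had 0 UMIs, and the sum of 5 enteroendocrine markers was 40.6 and 21.0 in members of replicates 1 and 2, against 200.4 and 61.4 in other cells. The sum of 5 tuft markers was 0 and 6.21 in members and 8.64 and 5.30 in other cells. The sum of 10 absorptive markers was 519 and 1746 in members and 3233 and 5680 in other cells. The sum of 5 stem markers was 121.7 and 118.8 in members and 29.2 and 64.5 in other cells, and that of 5 cycling markers 46.4 and 135.2 in members and 195.0 and 378.3 in other cells. The sum of 8 goblet markers was 97300 and 101150 in members and 217480 and 153820 in other cells.

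Members were last divided at the median total of UMIs in their own library, into 9 and 26 deep cells and 10 and 26 shallow cells in replicates 1 and 2. The deep cells were 7 and 26 makeup 1 cells and 2 and 0 makeup 2 cells, and the shallow cells were 4 and 16 makeup 1 and 6 and 10 makeup 2 cells, so depth and makeup moved together and their parts were not tested. Alpha-defensins took 77.0% and 74.2% of the UMIs of deep cells and 24.9% and 62.6% of those of shallow cells. Of 3210 genes tested, 2 (0.0623%) were higher in deep cells and 0 lower by edgeR, and 254 had an unadjusted p under 0.05. The 2 were Bambi, at 99.99 and 294 in deep and 31.99 and 96.8 in shallow cells (1.88 ± 0.28, edgeR adjusted p = 0.019), and the alpha-defensin gene Gm6696, at 554 and 377 in deep and 87.97 and 177 in shallow cells (1.97 ± 0.33, edgeR adjusted p = 0.036). With makeup 1 members alone 0 genes passed, and DESeq2 called 17 genes without these 2. The log2 ratio of Gm6696 was 3.10 in replicate 1 alone.

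The products that divided the makeups gave large but unsteady values by depth. Ang4 stood at 28230 and 39909 in deep and 1616 and 17592 in shallow cells, Mptx2 at 15131 and 42550 in deep and 2351 and 12380 in shallow cells, and neither passed. Pnliprp2 came nearest, at 1145 and 1868 in deep and 104 and 861 in shallow cells (edgeR adjusted p = 0.069). Mmp7 (0.82 ± 0.54), Reg4 (0.38 ± 0.41), Wnt3 (0.98 ± 0.32) and Muc2 (-0.00 ± 0.52) did not pass either.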

How the data were processed

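Per the labels, the libraries were made with 10x Genomics chemistry from sorted cells of 2 tissues, Si8 and DC, in 2 replicates each. The authors deposited raw UMI counts for each gene in each barcode, with no normalization, made with Cell Ranger 2.1.1 on mm10 per the submitters' processing notes. Gene coordinates come from GENCODE M21 (GRCm38) by Ensembl identifier and promoter sequences from RefSeq (GRCm38.p6).

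Barcodes needed 500 detected genes, and no more than 20% of UMIs from mitochondrial genes, to be kept. The members and the gene lists were chosen with earlier results of these data known, and Gm6696 and Gm21498 were added to the alpha-defensin list, from RefSeq synonyms, after values were seen. Counts were summed per class and library, and classes were compared with edgeR 4.0.16 (R 4.3.3) by its quasi-likelihood test, with TMM scaling, filterByExpr at a minimum count of 10, Benjamini-Hochberg adjustment over all tested genes and library as a block, since both classes come from the same library. Levels are UMIs per 1000000 UMIs outside the alpha-defensins. Makeup groups came from k-means (scikit-learn 1.9.0, 2 groups, 50 starts) on centred log ratios with 0.5 UMI added. A makeup test required 10 cells of each group in each library and was not made. Scrublet, in scanpy 1.11.5, scored doublets, which were kept, since its own threshold marked 3 barcodes in each Si8 library, and an alternative removed the highest scores at 0.8% per 1000 cells.

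The genes named are the given markers, alpha-defensins with at least 1% of the members' defensin UMIs, the 10 largest rises and 10 largest falls per comparison at 50 or more per 1000000 in both libraries, and the leading or defining genes of each list. Of the alpha-defensin genes, 1 is not reported here. In data simulated from the real means, with 200 genes changed 4-fold, each of the 3 comparisons recovered 100% of them. Of the calls, 4.31%, 2.91% and 3.85% were false against other cells, against goblet-rule cells and by depth. Apart from the changed genes, all simulated sums shared 1 mean profile and 1 fixed dispersion. They lacked the library and defensin differences of the real sums, so these rates do not carry over to the real comparisons. DESeq2 1.42.0, other scalings, filters, thresholds and subsets of cells were tried as alternatives. Depth per library is given with the results, and low counts limit the precision of rare genes.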

Additional observations from a re-analysis of the deposited data

How the results depend on the processing

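Against the other Si8 cells, 763 genes were called. Without the replicate block 199 were called (198 of them among the 763), with DESeq2 217, with library totals alone 9852 (0.700% of them higher, against 55.3%), with every cell thinned to 2000 UMIs 78 (20.5% higher) and with makeup 2 members alone 185 (36.8% higher). Against goblet-rule cells, 1382 were called (41.6% higher), and the same alternatives gave 673, 321 (57.9% higher), 9289 (0.893% higher), 168 (10.7% higher) and 179. In the first comparison DESeq2 and the fit without the block called 77.9% and 85.9% as higher. By depth, 2 genes were called, while 0 were called without the replicate block and with makeup 1 members alone, 1 without the highest doublet scores, 17 with DESeq2, 18 with no filter but 1 UMI, 21 when thinned and 25 for the top against the bottom of 3 groups by UMIs. Library totals alone called 2 by depth as well, but both lower and neither among the main 2. The other alternatives stayed within 1.5 times of each count. Both classes come from the same library, so the block follows the design.

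With library totals alone as the scale, log2 fold changes against other Si8 cells turned negative for Sox9 (-0.17), Smoc2 (-0.21), Hopx (-0.74), Ets2 (-1.38), Dnajb9 (-0.80), Sel1l (-0.89), Qsox1 (-0.90), Edem2 (-1.03), P4hb (-1.18), Spcs3 (-0.82), Lamp2 (-0.047), Sqstm1 (-0.86), Gabarapl1 (-0.90), Map1lc3b (-1.38), Ccl9 (-0.14), Atoh1 (-1.79), Spdef (-1.83), Xbp1 (-1.93) and Ephb2 (-1.89), and against goblet-rule cells for Kcnn4 (-1.05) and Stmn1 (-0.18). On that scale the defensins count in the total. Thinning turned Smoc2 (-0.77), Hopx (-0.66), P4hb (-0.31), Gabarapl1 (-0.41) and Map1lc3b (-0.53), and makeup 2 alone turned Sqstm1 (-0.0495) and, against goblet-rule cells, Stmn1 (-0.31). The cause was not tested. The mean share of members was 1.26% to 2.32% when either replicate was left out, and 1.48% to 2.43% over the other filters and thresholds. One library gives log2 ratios with no test. The makeup comparison was not tested, so its alternatives were not run, save for grouping after thinning and with 3 groups. Values rest on 19 and 52 cells, and genes with few UMIs have the widest error.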

Other observations

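Several genes that marked the Si8 members were abundant in the distal colon, where no cell passed the rule. Clps had 2106 and 10759 UMIs in the members of Si8 replicates 1 and 2, against 12890 and 15779 over all kept cells of DC replicates 1 and 2. Nupr1 had 982 and 2903 UMIs in the members and 25033 and 73731 in DC, and Reg4 had 1013 and 4238 UMIs in the members and 98140 and 217944 in DC. Other markers were nearly absent from DC, with 12 and 17 UMIs of Mptx2, 49 and 86 of Pnliprp2, 2 and 0 of Habp2, 1 and 5 of Mmp7 and 0 and 0 of Defa21. These are sums over unequal numbers of cells with no test.

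Among Paneth granule and secreted proteins other than defensins, 16 of 28 tested genes were higher in members than in other Si8 cells and 4 lower by edgeR, with a median log2 fold change of 1.94. On library totals alone 12 were higher and 10 lower, with a median of -0.15, and 14 of the 16 stayed above 0. Guca2b, which encodes uroguanylin, was picked after its values were seen. It stood at 1971 and 2043 per 1000000 outside the defensins in members and 245.9 and 256.6 in other cells, a log2 fold change of 3.34 ± 0.30 (edgeR adjusted p = 4.5e-27). The lower genes of this list were Reg3a, Reg3b, Spink1 and Dmbt1.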
